A study of Caenorhabditis elegans with 16 samples.

Results

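The effect of adding loss of edc-4 to embryos that already lacked normal edc-3 was examined by comparing edc-3(ok1427); edc-4(qe49) double mutant embryos (strain FD146) with edc-3(ok1427) embryos (strain RB1311). The comparison took 4 libraries of each genotype, 8 of the 16 libraries in the series, and was made across all 16880 genes with enough counts to test. Both groups carry edc-3(ok1427), so the edc-4(qe49) allele is what the genotypes are labelled to differ by. The same allele change on a wild-type background, edc-4(qe49) (strain FD135) against N2 wild type (WT), uses the other 8 libraries and therefore shares none with it. RNA came from pooled mixed-stage Caenorhabditis elegans embryos, taken by bleaching from gravid cultures grown at 16 °C, and RNA with an integrity number above 8 went into ribosomal RNA-depleted, stranded total RNA libraries. Each genotype was 1 strain, so any other difference between strains FD146 and RB1311 cannot be told apart from the edc-4 allele. The labels describe the 4 replicates, numbered 2 to 5, as independent biological replicates.

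Removal of the 5' cap by the DCAP-1 and DCAP-2 decapping enzyme opens an mRNA to degradation by the exonuclease XRN-1. Proteins called enhancers of decapping assist it. In other animals EDC4 is a large scaffold that joins DCP1 and DCP2, while EDC3 binds DCP2 and the helicase DDX6, whose worm counterpart is CGH-1. EDC-3, EDC-4 and these partners gather in cytoplasmic processing bodies, which in the worm embryo lie beside maternal mRNAs that are stored, translated or cleared as zygotic transcription begins.

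Depth ran between 34.1 and 46.6 M gene counts over the 8 libraries, around a median of 41.7 M. All 10 embryo markers had counts in every one of them, with summed levels of 385 to 490 CPM (counts per 1e6) in double mutant libraries and 355 to 424 CPM in edc-3 libraries. Of the markers of other sources, the 6 oocyte genes summed to 319 to 468 CPM in double mutant and 233 to 523 CPM in edc-3 libraries, the 6 larval and adult epidermis genes to 153 to 212 CPM in double mutant and 166 to 216 CPM in edc-3 libraries, and the 6 vitellogenin genes of the adult intestine to 1.496 to 2.73 CPM in double mutant and 1.35 to 2.18 CPM in edc-3 libraries. The 62 sperm genes summed to 17.6 to 21.3 CPM in double mutant and 19.6 to 21.7 CPM in edc-3 libraries. Of these 13 had counts in all 8 libraries, and 14 others, msp and ssp genes, were at 0 in all 8. Nearly all of the epidermis sum was dpy-7, with means of 183 CPM in double mutant and 191 CPM in edc-3 libraries. The next highest epidermis gene, rol-6, averaged 0.345 and 0.256 CPM. Most of the sperm sum was spe-15, with means of 14.9 CPM in double mutant and 16.3 CPM in edc-3 libraries. Enough counts for the test described next were found for 10 embryo, 6 oocyte, 2 epidermis, 1 vitellogenin and 9 sperm genes. None of these passed it, and the part of cells of other sources in the results was not tested. Double mutant replicate 4 stood apart from the other 7 compared libraries. Its score on the first principal component, which held 36.0% of the variance, was -53.8, against -5.43 to 3.00 in the other double mutant libraries and -21.2 to 30.7 in edc-3 libraries; edc-4 replicate 4 had a like score of -53.8. For some of the results described here, the value without the libraries numbered 4 is also given.

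Few transcripts passed the test between double mutant and edc-3 embryos. By the edgeR quasi-likelihood test, 6 of 16880 genes (0.0355%) passed a Benjamini-Hochberg adjusted p of 0.05, and such genes are termed called below. All 6 fell and 0 rose, which is 0.0355% and 0% of the genes tested. DESeq2 called 25 genes, 14 higher and 11 lower. The unadjusted p was under 0.05 for 845 genes (5.01%), 397 (2.35%) with a higher and 448 (2.65%) with a lower level in the double mutant. On the wild-type background, edc-4 libraries differed from WT libraries in 24 genes (0.142%), 12 higher and 12 lower (0.0711% each), with 840 (4.98%) at an unadjusted p under 0.05.

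The precision of the fold changes differed with expression level. The median standard error of a log2 fold change was 0.21, and 0.15 among the 9597 genes with a mean of 5 CPM or more over the 8 libraries. Of these better expressed genes, 9426 (98.2%) had a 95% interval that lay wholly within a 2-fold change in either direction, and 7085 (73.8%) one within 1.5-fold. By point estimate 5 of the 9597 genes lay past 2-fold, against 158 of all 16880. The levels of all 4 double mutant libraries lay on 1 side of all 4 edc-3 libraries for 741 genes (4.39%), 426 (2.52%) with double mutant libraries higher and 315 (1.87%) with them lower. Among the 9597 better expressed genes this held for 4.98%.

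The targeted transcript was checked first. The edc-4 gene (WBGene00021551, chromosome I, 3340212 to 3349914, minus strand, in WBcel235) gave 27.1, 31.0, 20.4 and 26.0 CPM in double mutant replicates 2 to 5, against 171, 198, 189 and 146.53 CPM in edc-3 replicates 2 to 5. Every double mutant library lay below every edc-3 library. The transcript fell to 14.8% of its edc-3 level (log2 -2.76, SE 0.14, adjusted p = 1.07e-09; exact two-sided permutation p = 0.0286, the smallest that 4 against 4 libraries allow). Between 738 and 1184 counts of edc-4 remained in each double mutant library. Without edc-3(ok1427) the levels were 29.4 to 35.3 CPM in edc-4 libraries against 139 to 183 CPM in WT libraries (log2 -2.40), and the difference between the 2 backgrounds did not pass (interaction log2 -0.36, SE 0.19, unadjusted p = 0.0677, adjusted p = 0.9999). Part of edc-4 overlaps Y44E3A.1 on the other strand, which measured 35.9 CPM in the double mutant and 35.6 CPM in edc-3 (log2 0.01).

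Transcripts of edc-3 (WBGene00011036, on chromosome I, 8602125 to 8605162, plus strand) were present in both groups, which carry the same edc-3 allele. Their level was 69.4, 65.0, 82.5 and 74.3 CPM in double mutant replicates 2 to 5 and 57.4, 64.4, 69.3 and 58.4 CPM in edc-3 replicates 2 to 5. The 2 groups overlapped. The log2 difference was 0.22 (95% interval -0.05 to 0.50, adjusted p = 0.90; exact permutation p = 0.0571). A whole-gene count does not show a deletion if the remaining exons are still transcribed.

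The largest difference was in a small nucleolar RNA. F59C6.15 (chromosome I, 10516978 to 10517150, minus strand), which belongs to the class of short nuclear RNAs that guide modification of other RNAs, measured 7.04, 6.93, 6.61 and 5.28 CPM in double mutant replicates 2 to 5, against 431, 429, 390 and 438 CPM in edc-3 replicates 2 to 5. These are 231 to 284 counts per double mutant library against 14015 to 22355 counts per edc-3 library, and the groups were far apart. The level was 65.3-fold lower in the double mutant (log2 -6.03, SE 0.25, adjusted p = 5.50e-11). Levels of 10.7 to 27.6 CPM in edc-4 libraries and 5.89 to 7.69 CPM in WT libraries show that the double mutant and WT ranges overlapped, and it is the edc-3 libraries that stood above all 12 others. On the wild-type background the edc-4 libraries were higher than WT (log2 1.34, adjusted p = 0.0057), so the differences on the 2 backgrounds had opposite signs, and the interaction passed (log2 -7.36, adjusted p = 1.22e-10). Within 20 kb of it 13 other genes were tested, with log2 differences of -0.27 to 0.43, and 0 of these were called or had an unadjusted p under 0.05. Of the 205 small nucleolar RNAs tested, it was the only call; the list had a median log2 difference of -0.02, beside -0.01 for all genes, with 97 positive and 108 negative values.

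**Figure D1:**
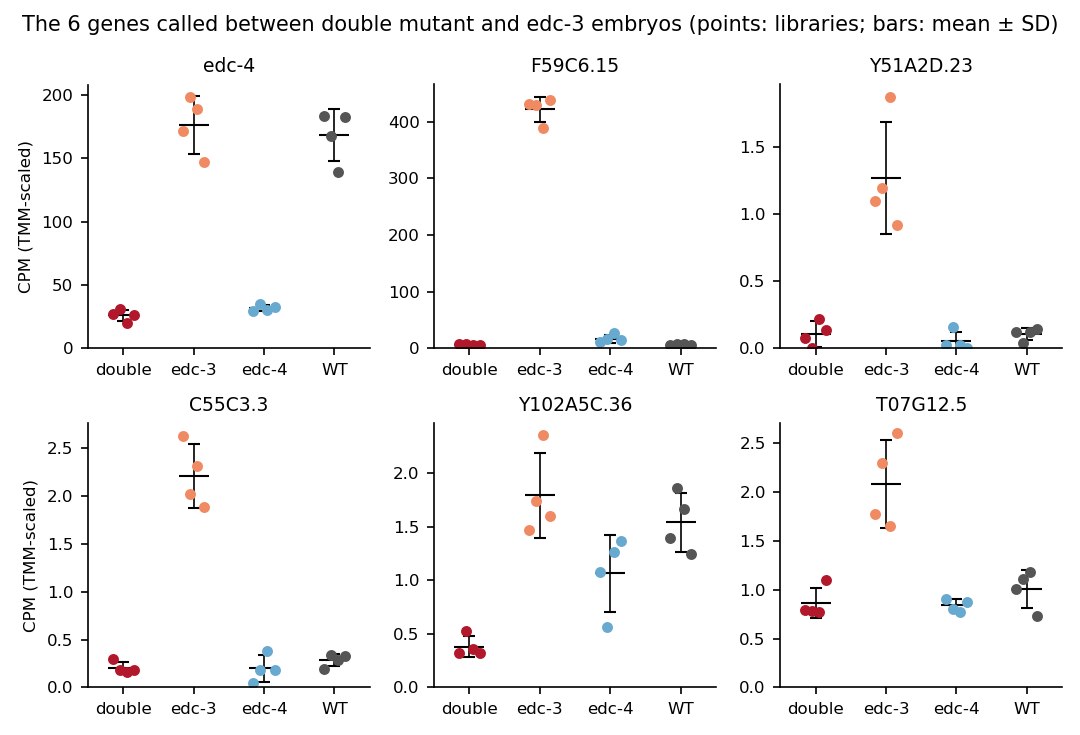
Levels (TMM-scaled CPM, linear axes from 0) of the 6 genes called between double mutant and edc-3 embryos, in the 4 libraries of each genotype; points are libraries and bars show the mean ± SD. Double mutant libraries lie below edc-3 libraries in all 6 panels, and in 4 panels (F59C6.15, Y51A2D.23, C55C3.3 and T07G12.5) the edc-3 libraries lie above those of the other 3 genotypes.

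The other 4 called genes were expressed below 5 CPM. C55C3.3 (chromosome IV, 5685287 to 5688273) gave 0.297, 0.183, 0.166 and 0.183 CPM in double mutant replicates 2 to 5, against 2.63, 2.02, 2.31 and 1.88 CPM in edc-3 replicates 2 to 5 (log2 -3.39, SE 0.35, adjusted p = 8.01e-05). These levels rest on 6 to 12 counts per double mutant library and 66 to 120 per edc-3 library, and the groups did not overlap. The edc-4 libraries, at 0.044 to 0.385 CPM, spanned the double mutant values, while 3 of the 4 double mutant libraries lay below the lowest of the WT libraries, at 0.195 to 0.336 CPM.

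The pseudogene Y51A2D.23 (chromosome V, 18529392 to 18529878) had 3, 0, 8 and 6 counts in double mutant replicates 2 to 5, against 50, 39, 68 and 47 counts in edc-3 replicates 2 to 5 (0 to 0.221 CPM in double mutant libraries against 0.92 to 1.87 CPM in edc-3; log2 -3.52, SE 0.57, adjusted p = 0.0261). T07G12.5 (chromosome IV, 10541428 to 10545138) gave 0.793, 0.785, 0.774 and 1.10 CPM in double mutant replicates 2 to 5, against 1.77, 2.297, 1.65 and 2.60 CPM in edc-3 replicates 2 to 5 (log2 -1.27, SE 0.21, adjusted p = 0.0344). In both genes the edc-3 libraries lay above the libraries of all other genotypes, as in C55C3.3 and F59C6.15. Both calls were weak: each was lost in 6 of the 8 fits that left out 1 of the compared libraries, with adjusted p up to 0.222 and 0.256, while the direction held.

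Y102A5C.36 (chromosome V, 16926922 to 16927445) differed from these, because here the double mutant stood alone. It gave 0.322, 0.523, 0.359 and 0.320 CPM in double mutant replicates 2 to 5, against 1.47, 1.75, 2.36 and 1.61 CPM in edc-3 replicates 2 to 5 (log2 -2.23, SE 0.29, adjusted p = 0.00176). The edc-4 libraries held 0.561 to 1.36 CPM and the WT libraries 1.25 to 1.87 CPM, so each of the 4 double mutant libraries lay below all 12 others. The difference from that on the wild-type background did not pass (interaction log2 -1.69, adjusted p = 0.416). Its pseudogene neighbours Y102A5C.5 and Y102A5C.6, 883 and 1722 bases away on the other strand, measured 0.520 and 1.299 CPM in double mutant libraries against 1.75 and 3.84 CPM in edc-3 (log2 -1.74 and -1.55), but were not called (adjusted p = 0.150 and 0.267). DESeq2 called both (adjusted p = 0.0016 and 0.0050), as did the fit with a stage covariate, described below (0.0070 each), and the fit without a filter on low counts (0.0103 each); they were looked at because they adjoin it. With the 4 libraries numbered 4 left out of the fit, 4 genes were called, and Y102A5C.36, Y51A2D.23 and T07G12.5 were not among them (adjusted p = 0.056, 0.0688 and 0.0919).

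Apart from edc-4, no gene of decapping or of processing bodies was called. All 20 listed genes were measured, and the 19 other than edc-4 had 95% intervals within a 2-fold change in either direction. The median log2 difference of the list was 0.06, with 16 of 20 values positive, beside 49.1% of all genes. The catalytic subunit gene dcap-2 averaged 99.6 ± 2.63 CPM in double mutant libraries against 96.5 ± 11.2 CPM in edc-3 (SD, n = 4 for both; log2 0.05, 95% interval -0.17 to 0.26). Its partner dcap-1 averaged 62.2 ± 4.05 CPM in double mutant libraries against 68.1 ± 6.91 CPM in edc-3 (log2 -0.13, interval -0.36 to 0.09). The exonuclease gene xrn-1 averaged 243 ± 11.4 CPM in double mutant libraries against 241 ± 25.6 CPM in edc-3 (log2 0.01, interval -0.19 to 0.21).

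Among the activators of decapping, the scaffold gene patr-1 averaged 404 ± 13.4 CPM in the double mutant and 399 ± 60.2 CPM in edc-3 (log2 0.02, interval -0.28 to 0.31). The widest intervals belonged to the helicase gene cgh-1 and to car-1, an RNA-binding partner of CGH-1, at log2 0.18 (-0.32 to 0.68) and 0.17 (-0.34 to 0.68). For cgh-1 the double mutant libraries held 319, 309, 204 and 354 CPM, against 266, 358, 250 and 171 CPM in edc-3 libraries, so the groups overlapped. The highest values of the list were those of lsm-3 (log2 0.24), edc-3 (0.22) and lsm-1 (0.20). Both lsm genes encode subunits of the Lsm ring that binds deadenylated mRNA ends, and all 3 had intervals that included 0. With a stage covariate, described below, the median of the list was 0.00.

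**Figure D2:**
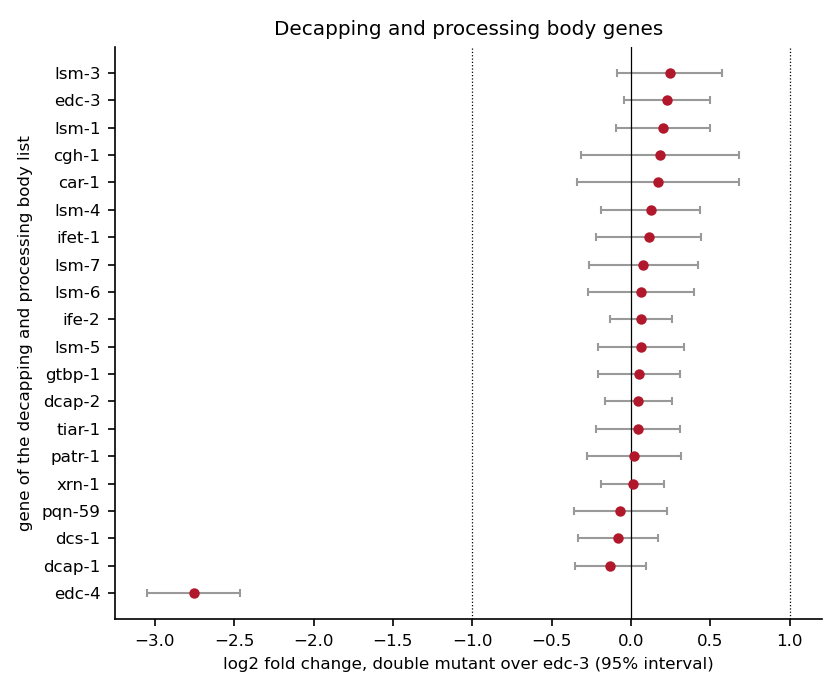
Log2 fold change of the double mutant over edc-3 (x axis) for the 20 genes of the decapping and processing body list (y axis); points are estimates, bars 95% intervals, and dotted lines mark a 2-fold change. The edc-4 gene lies at -2.76, and the intervals of the other 19 genes lie between the dotted lines.

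Other RNA decay genes gave no call. The 11 deadenylation genes, 13 exosome genes and 11 nonsense-mediated decay genes tested had 0 calls, medians of 0.06, 0.14 and 0.05 (0.08, 0.08 and 0.01 without the libraries numbered 4) and, in each list, every interval within 2-fold. The same held for the 11 microRNA effector genes (median 0.10). In the 27 germ granule genes and the 50 small RNA pathway genes tested, of 53 listed, 0 were called, with medians of 0.10 and 0.08 and 26 and 49 intervals within 2-fold.

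Since only 2 genes of 5 CPM or more were called, the uncalled genes with the smallest p were also described, 10 in each direction, among genes at 5 CPM or more whose double mutant and edc-3 libraries did not overlap. These values chose the genes and are given as a description. The 10 with higher levels in the double mutant differed by 0.42 to 0.63 on the log2 scale, with adjusted p of 0.126 to 0.363. They included efn-4, an ephrin gene of embryonic morphogenesis, the fatty acid desaturase gene fat-3, the zinc finger gene lir-3 and the chromatin remodeller gene chd-1.

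For efn-4 (chromosome IV, 559234 to 568147) the double mutant libraries held 99.2, 101, 99.3 and 98.4 CPM, against 70.0, 79.2, 75.3 and 70.2 CPM in edc-3 libraries (log2 0.43, SE 0.10, adjusted p = 0.283). The edc-4 libraries, at 88.4, 99.7, 103 and 96.3 CPM, likewise lay above the WT libraries, at 66.1, 67.3, 59.2 and 80.9 CPM, and there the difference passed (log2 0.50, adjusted p = 0.0467). The interaction was -0.07 (95% interval -0.36 to 0.22), with an unadjusted p of 0.627. An annotated small nucleolar RNA gene, F56A11.14, lies on the same strand within efn-4, and 2 genes overlap it on the other strand.

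T26C12.3 (chromosome IV, 3269463 to 3273395) had a like pattern, with 67.6, 64.9, 56.0 and 66.7 CPM in double mutant libraries, against 46.0, 44.8, 50.6 and 43.7 CPM in edc-3 libraries (log2 0.46, SE 0.10, adjusted p = 0.267). In edc-4 libraries it had 65.7 to 79.3 CPM against 40.2 to 49.2 CPM in WT libraries, a difference that passed (log2 0.65, adjusted p = 0.0057). The gene lir-3 (chromosome II, 11183075 to 11184807) was at 12.3, 12.3, 13.3 and 13.3 CPM in double mutant libraries, against 8.27, 9.19, 8.57 and 8.16 CPM in edc-3 libraries (log2 0.58, SE 0.11, adjusted p = 0.126). Its edc-4 libraries, at 11.4 to 13.5 CPM, lay above its WT libraries, at 9.34 to 10.3 CPM, and that difference did not pass over all genes (log2 0.38, adjusted p = 0.726). Y65A5A.1 (chromosome IV, 16398839 to 16399826) was at 60.9 to 69.7 CPM in double mutant libraries against 41.7 to 47.6 CPM in edc-3 libraries, and the pseudogene ZC513.7 (chromosome V, 8039469 to 8040387) at 209 to 292 CPM in double mutant libraries against 154 to 191 CPM in edc-3 libraries. The genes lir-3, W04C9.4, ZC513.7, C56E6.2 and chd-1 overlap an annotated gene on the other strand, as Y65A5A.1 does a tRNA gene. In 5 of the 10 genes, efn-4, T26C12.3, lir-3, W04C9.4 and C56E6.2, every library with edc-4(qe49) lay above every library without it. This held for 16 of the 9597 genes of 5 CPM or more (0.167%), and for 4.47% of the 358 whose double mutant libraries all lay above the edc-3 libraries, which was a condition for choosing the 10.

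The edc-4 and WT libraries were in the same fit, so their spread entered the p that chose these 10 genes. Between edc-4 and WT, 8 of the 10 also had a higher level in edc-4. This was near the background, since 76.9% of the genes of 5 CPM or more had like signs in the 2 comparisons (70.3% of all genes). In 7 of the 10 the unadjusted p of edc-4 against WT was also under 0.05, with a higher level in edc-4. Like signs with such a p were found in 4.54% of the genes of 5 CPM or more. Without the libraries numbered 4 the counts were again 8 and 7 of 10, beside 51.2% and 2.14%. Because the fit shares the spread, 4.54% and 2.14% are not a matched background for these 10. Of the 10, efn-4 and T26C12.3 were called higher in edc-4, and T25D10.4 was called in the other direction.

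The genes fat-3 and T25D10.4 departed from this pattern, as did chd-1. For fat-3 (chromosome IV, 9803023 to 9806119) the double mutant libraries held 36.0, 36.4, 37.1 and 35.9 CPM, against 26.0, 25.0, 26.3 and 27.1 CPM in edc-3 libraries (log2 0.48, SE 0.10, adjusted p = 0.176). The edc-4 libraries, at 28.5 to 34.1 CPM, and the WT libraries, at 28.8 to 35.6 CPM, lay between these and overlapped each other (log2 0.00). Here the double mutant was the highest and edc-3 the lowest of the 4 genotypes, without any overlap, yet the interaction did not pass (log2 0.47, unadjusted p = 0.0028, adjusted p = 0.9999). T25D10.4 (chromosome II, 6407535 to 6410281) had 52.5 to 58.0 CPM in double mutant libraries, against 36.6 to 43.8 CPM in edc-3 libraries, while edc-4 libraries at 47.2 to 53.9 CPM lay below WT libraries at 71.1 to 89.9 CPM; for this gene the interaction passed (log2 1.09, adjusted p = 0.00145). It overlaps T25D10.6 on the other strand. Levels of chd-1 were 264 to 304 CPM in double mutant libraries against 183 to 209 CPM in edc-3 libraries (log2 0.49), with edc-4 at 194 to 285 CPM and WT at 199.9 to 262 CPM overlapping (log2 -0.04).

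**Figure D3:**
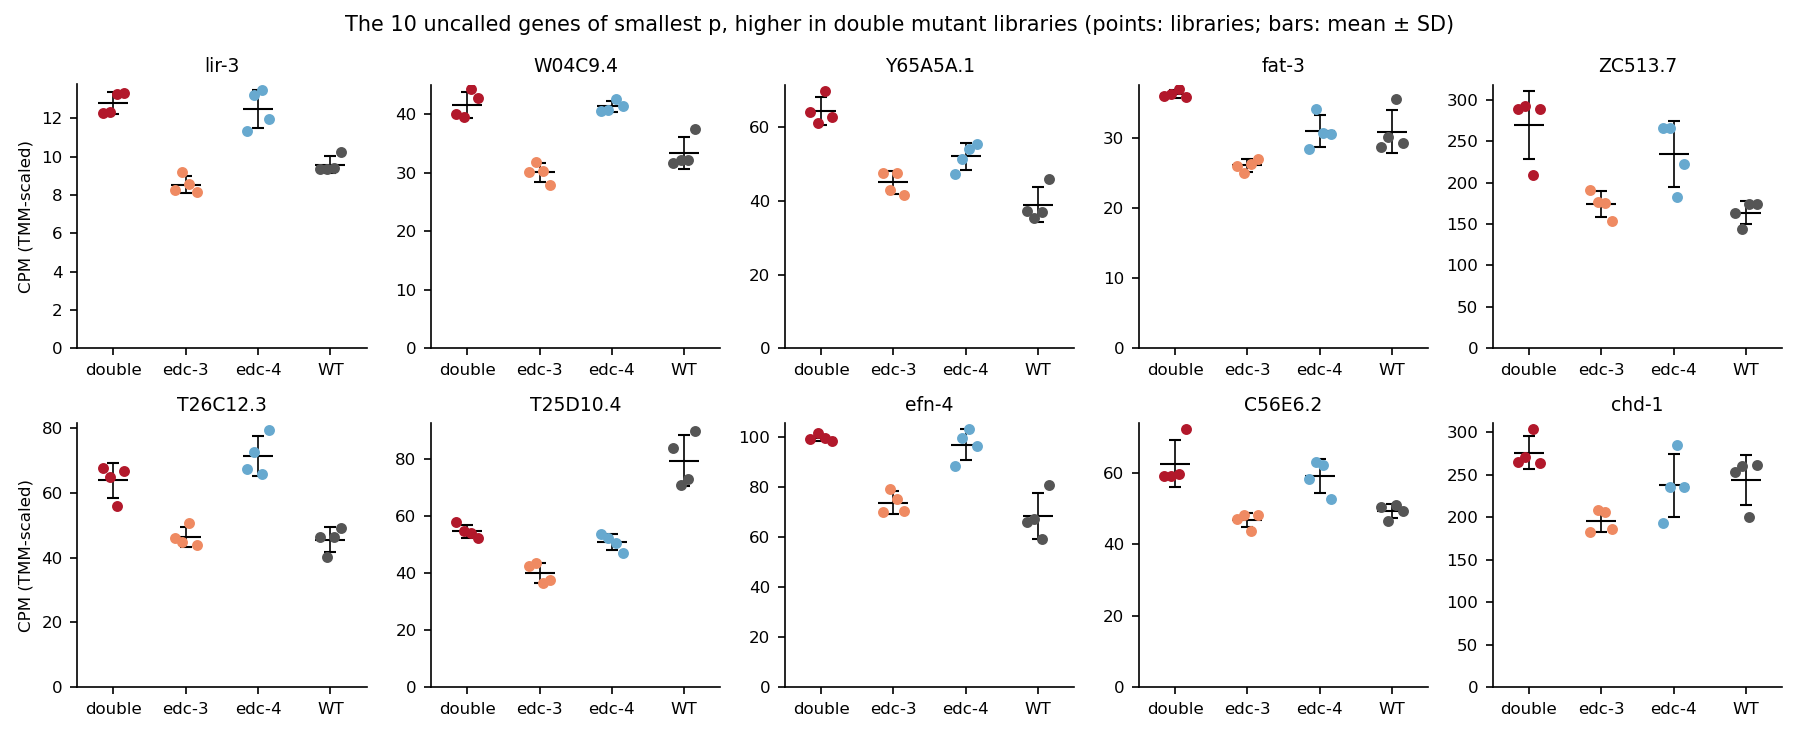
Levels (TMM-scaled CPM, linear axes from 0) of the 10 uncalled genes of smallest p with higher levels in the double mutant, in the 4 libraries of each genotype; points are libraries and bars show the mean ± SD. In the panels of lir-3, W04C9.4, T26C12.3, efn-4 and C56E6.2 all double mutant and edc-4 libraries lie above all edc-3 and WT libraries, while fat-3 is highest in the double mutant and lowest in edc-3.

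The 10 uncalled genes with lower levels in the double mutant differed by -1.27 to -0.46 on the log2 scale (adjusted p = 0.283 to 0.900). The gene of largest difference among them was the myo-inositol transporter gene hmit-1.1 (chromosome V, 18516789 to 18523875). It had 3.17, 4.21, 2.16 and 2.99 CPM in double mutant libraries, against 6.98, 6.74, 6.40 and 9.98 CPM in edc-3 libraries (log2 -1.27, SE 0.28, adjusted p = 0.283). It lies 5517 bases from the called pseudogene Y51A2D.23. Nearer to that pseudogene, hmit-1.2 (236 bases away) and ints-5 (4075 bases) differed by -0.29 and -0.04 on the log2 scale and were not called. The glycerol phosphate dehydrogenase gene gpdh-1, of glycerol synthesis, had 3.95 to 6.28 CPM in double mutant libraries against 6.55 to 10.9 CPM in edc-3 libraries (log2 -0.70, adjusted p = 0.900). Both hmit-1.1 and gpdh-1 are known to be induced by hypertonic stress. On the other strand gpdh-1 overlaps gadr-6.

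The glutathione S-transferase genes gst-4, which shares a strand and bases with dhs-12, and gst-5, which overlaps nos-1 on the other strand, were also among the 10; they encode enzymes of detoxification. For gst-4 the double mutant libraries held 6.89, 7.27, 7.85 and 5.16 CPM, against 13.2, 12.0, 13.7 and 18.1 CPM in edc-3 libraries (log2 -1.07, SE 0.27, adjusted p = 0.423). Levels of 4.49 to 11.4 CPM in edc-4 libraries and 3.96 to 8.82 CPM in WT libraries place the edc-3 libraries above all others. The remaining genes were sax-2, a gene of neuronal morphology, the glutaminase gene glna-2, the cilium gene dyf-3, rips-1, E03H4.8 and F15E6.10. Between edc-4 and WT, 8 of these 10 had the same sign, beside 76.9% of genes of 5 CPM or more, and 2 (hmit-1.1 and gpdh-1) had it with an unadjusted p under 0.05, beside 4.54%. Without the libraries numbered 4 the counts were 5 and 2 of 10, beside 51.2% and 2.14%. As for the first 10 genes, 4.54% and 2.14% are not a matched background, since the fit shares the spread.

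The genes that were called between edc-4 and WT were then followed into the edc-3 background. Of these 24 genes, 2 were also called between double mutant and edc-3: edc-4, in the same direction, and F59C6.15, in the opposite one. Of the 12 genes higher in edc-4, 9 had a positive difference between double mutant and edc-3, and of the 12 lower in edc-4, 7 had a negative one. Without edc-4 itself the latter count was 6 of 11. Over all genes tested, 70.3% had like signs in the 2 comparisons. The 9 of 12 lay near this share, and the 7 of 12 and 6 of 11 below it. Without the libraries numbered 4 the share over all genes was 50.8%, while the counts given here come from all libraries. The interaction was called for 6 of the 24, out of 6 called among all 16880 genes (0.0355%). The interaction contains the edc-4 against WT difference that chose the 24 genes, so the 2 shares cannot be compared.

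Several genes called between edc-4 and WT had values near 0 here. On chromosome I, ddx-10 averaged 386 ± 24.0 CPM in double mutant libraries against 357 ± 39.5 CPM in edc-3 (SD, n = 4 for both; log2 0.11), and its neighbours eif-3.I and Y23H5B.5 differed by 0.02 each. On chromosome II, rer-1 had 56.0 to 70.8 CPM in double mutant libraries and 50.7 to 56.2 CPM in edc-3 libraries (log2 0.18, adjusted p = 0.900), with 51.7 to 65.5 CPM in edc-4 libraries against 135.9 to 166 CPM in WT libraries (log2 -1.40). The interaction of rer-1 passed (log2 1.59, adjusted p = 2.35e-05). Its neighbour F46C5.9 differed by 0.18 between double mutant and edc-3, and the adjoining pseudogenes Y46G5A.6 and Y46G5A.43, whose reads may not be told apart, by -0.26 and -0.27. For ddx-10, eif-3.I, Y23H5B.5, rer-1 and F46C5.9 every WT library lay outside the range of the 12 mutant libraries. This did not hold for the pseudogenes: Y46G5A.6 had 5.80 to 7.27 CPM in double mutant, 7.18 to 9.04 CPM in edc-3, 4.13 to 5.06 CPM in edc-4 and 6.62 to 19.3 CPM in WT libraries.

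Across the genes of 5 CPM or more, the fold changes of the 2 comparisons were correlated, but this rested on the libraries numbered 4. Spearman's rho of the log2 fold changes was 0.67 over 9597 genes, and 0.02 when the 4 libraries numbered 4 were left out. With a stage covariate it was 0.31. These are descriptions across genes, which are not independent replicates, and the comparisons share the normalization and the fit but no library. The stage covariate, or stage index, is the mean log2 CPM of 47 early zygotic genes minus that of 49 muscle genes in each library, so it is higher where early zygotic transcripts are more abundant relative to muscle transcripts. It was -2.48, -2.75, -1.40 and -2.80 in double mutant replicates 2 to 5, and -2.94, -2.59, -2.19 and -3.08 in edc-3 replicates 2 to 5. The groups overlapped, and double mutant replicate 4 was the highest (difference 0.35, exact two-sided permutation p = 0.486, and 0.03 without that library). On the wild-type background the libraries numbered 4 were at -1.46 in edc-4 and -3.60 in WT, the highest and the lowest of those 8.

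**Figure D4:**
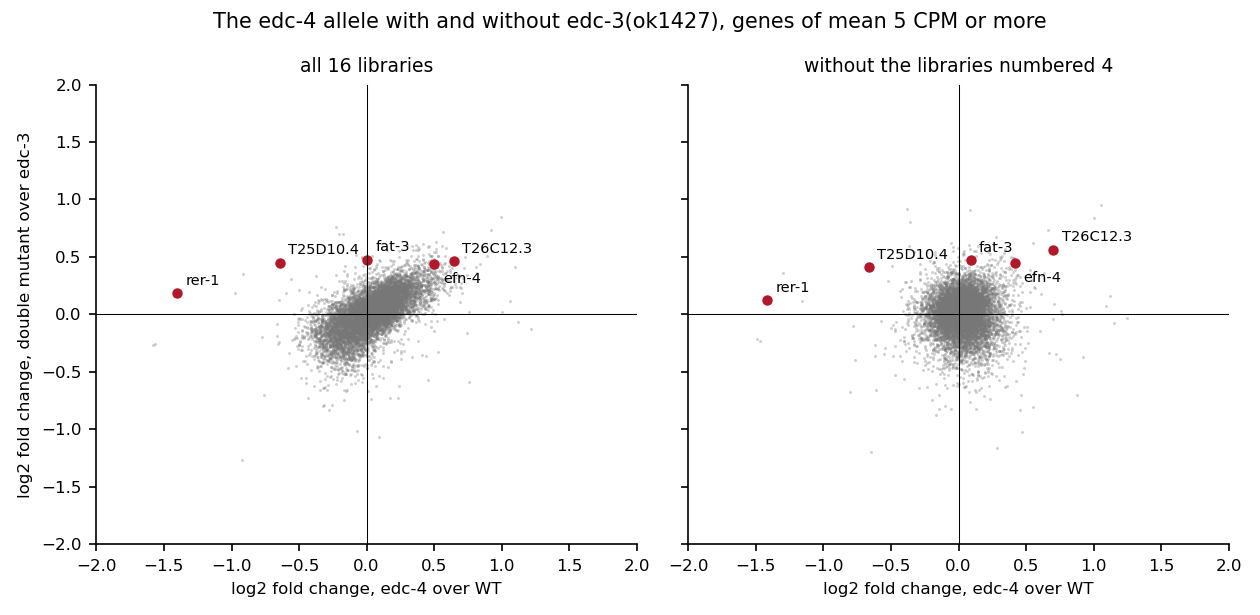
Log2 fold change of edc-4 over WT (x axis) and of double mutant over edc-3 (y axis) for 9597 genes of 5 CPM or more, from all 16 libraries (left) and without the libraries numbered 4 (right); each point is a gene, 5 named genes are in red, and 2 genes beyond the axes are not drawn. The cloud is tilted on the left (Spearman's rho 0.67) and round on the right (0.02), while efn-4 and T26C12.3 stay in the upper right of both.

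The choice of covariate moved the number of calls. With the stage index as a term in the fit, 45 genes were called between double mutant and edc-3, 30 higher and 15 lower, among them all 6 called without it. All 10 of the uncalled genes with higher levels were then called, and 1 of the 10 with lower levels, hmit-1.1 (log2 -1.09, adjusted p = 0.0115). For efn-4 the adjusted p was 0.0256, for fat-3 0.0083 and for T26C12.3 0.0115. DESeq2 called 9 of the first 10, all but chd-1, and of the other 10 hmit-1.1 and gst-4. The limma-voom fit called 0 of the 20, and every fold change kept its sign in all 3. The covariate is itself computed from these libraries.

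Lists of tissue differentiation and of early development had small medians of opposite sign. In bulk RNA, fewer cells of a type and less RNA per cell cannot be told apart. Of 55 early zygotic genes 0 were called, and 50 had a positive difference (median log2 0.17, beside -0.01 and 49.1% positive for all genes). Without the libraries numbered 4 the median was 0.09. The lists of cell division (44 of 50 positive, median 0.10), maternal RNA regulators (41 of 50, 0.11) and proteasome subunits (30 of 33, 0.15) lay on the same side. On the other side were muscle genes (5 of 49 positive, median -0.19), neuronal genes (8 of 51, -0.14), intestinal genes (7 of 28, -0.25) and the hedgehog-related family of secreted epidermal proteins (18 of 72, -0.20). None of the genes in these lists was called. Without the libraries numbered 4 the medians were -0.12 for muscle, -0.10 for neuronal, -0.19 for intestinal and -0.18 for hedgehog-related genes, and 0.09 for cell division, 0.18 for maternal RNA regulators and 0.12 for proteasome genes. With the stage covariate the medians of early zygotic, muscle, neuronal and cell division genes were -0.02, -0.02, 0.01 and -0.01; for the first 2 lists the covariate is built from the same genes.

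Within the early zygotic list the smallest p was that of cnd-1, a neuronal transcription factor gene, at 16.4 ± 0.889 CPM in double mutant libraries against 13.1 ± 0.700 CPM in edc-3 (SD, n = 4 for both; log2 0.33, adjusted p = 0.900). In the cell division list it was cki-1, a cyclin-dependent kinase inhibitor gene, at 150 ± 25.5 CPM in double mutant libraries against 101 ± 5.44 CPM in edc-3 (log2 0.56, adjusted p = 0.498), which was called with the stage covariate (log2 0.66, adjusted p = 6.26e-04). These names were chosen after their values were seen.

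Ribosomal protein genes gave a small difference shared by nearly the whole list. Of 80 tested, 76 had a lower level in the double mutant and 0 were called (median -0.15, range -0.32 to 0.18), and every interval lay within 2-fold. The mean log2 CPM of the list was 7.71, 7.81, 7.42 and 7.72 in double mutant replicates 2 to 5, and 7.91, 7.85, 7.71 and 7.79 in edc-3 replicates 2 to 5, so the groups overlapped and replicate 4 of the double mutant was the lowest. The median was -0.12 without the libraries numbered 4 and -0.07 with the stage covariate. Translation factor genes lay on the other side (31 of 43 positive, median 0.10, 0 called).

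The genes of the mitochondrial genome, which encode respiratory chain subunits, had the lowest median of all lists. Of the 12 protein-coding genes tested 11 had a lower level in the double mutant, with a median of -0.40 and 0 called; 1, MTCE.25, had an unadjusted p under 0.05. MTCE.25 averaged 258 ± 31.9 CPM in the double mutant and 384 ± 60.6 CPM in edc-3 (log2 -0.57, SE 0.22, adjusted p = 0.900). The cytochrome b gene ctb-1 averaged 892 ± 152 CPM in double mutant libraries against 1321 ± 296 CPM in edc-3 (SD, n = 4 for both; log2 -0.57, interval -1.14 to 0.01). Mean log2 CPM of the list was 6.03, 5.78, 6.58 and 6.39 in double mutant libraries against 6.47, 6.16, 6.77 and 6.92 in edc-3 libraries, which overlap. The median was -0.42 with the stage covariate and -0.46 without the libraries numbered 4. The nuclear genes of the respiratory chain, 43 tested, had a median of 0.01 and 0 calls. Transcripts of 1 genome are not independent of each other.

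The share of counts assigned to ribosomal RNA, which the depletion leaves behind, was also compared. It was 22.9, 23.5, 18.9 and 21.7% in double mutant replicates 2 to 5 and 19.5, 18.9, 18.4 and 16.6% in edc-3 replicates 2 to 5. The groups overlapped through double mutant replicate 4 (difference 3.39 percentage points, exact permutation p = 0.0857). Without that library the difference was 4.36 points. No p is given for it, because leaving out the library that overlapped fixes the outcome of the test. With ribosomal RNA genes removed before scaling, the same 6 genes were called. Its part in the lists above was not tested.

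Among stress and defence genes the lists differed from each other. Of all genes tested, 49.1% were positive, and 2.35% were higher and 2.65% lower at an unadjusted p under 0.05. The median over all genes was -0.01. The 15 osmotic response genes had a median of -0.29, with 4 positive, 0 called and 3 at an unadjusted p under 0.05, all lower (hmit-1.1, gpdh-1 and osm-7). Their mean log2 CPM was 3.57, 3.67, 3.31 and 3.59 in double mutant libraries, against 3.81, 3.74, 3.74 and 3.94 in edc-3 libraries, without overlap. No other list was so separated, and among single genes 4.39% were. The edc-4 libraries, at 3.38 to 3.81, overlapped the WT libraries, at 3.64 to 3.90. There the list median had the same sign, at -0.21 for edc-4 against WT, with 3 of 15 genes positive. Between double mutant and edc-3 the median was -0.13 with the stage covariate and -0.17 without the libraries numbered 4. Of the 154 detoxification genes tested 0 were called; 49 were positive, 2 were higher and 18 lower at an unadjusted p under 0.05, and the median was -0.12 (-0.11 with the covariate and -0.20 without the libraries numbered 4). Of the 148 immune effector genes tested 0 were called; 42 were positive, 2 were higher and 8 lower at an unadjusted p under 0.05, and the median was -0.14 (-0.04 with the covariate and -0.13 without those libraries). Heat shock genes (26 tested), endoplasmic reticulum chaperones (18) and the pals family, some of whose members respond to intracellular infection (21), had 0 calls and medians of -0.05, 0.02 and 0.04. Without the libraries numbered 4 these medians were 0.01, 0.05 and -0.05.

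**Figure D5:**
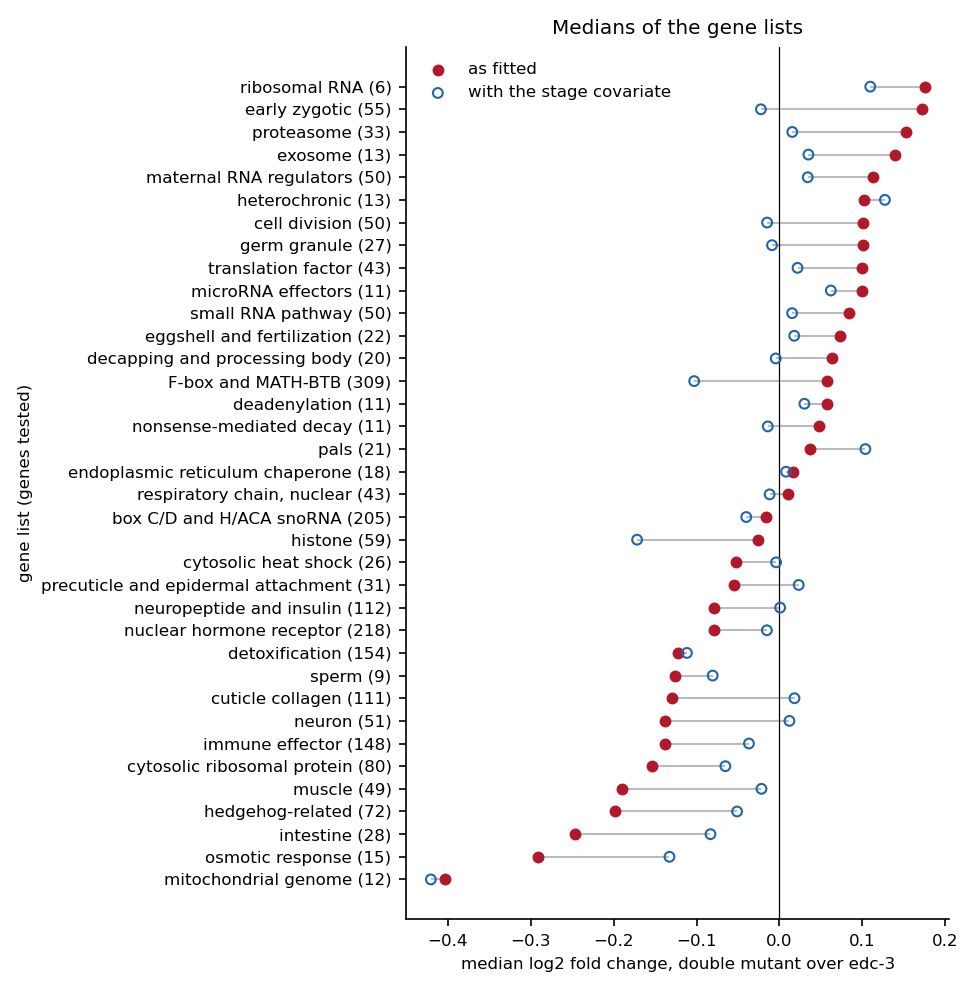
Median log2 fold change of the double mutant over edc-3 (x axis) for 36 gene lists (y axis, with the number of genes tested), as fitted (filled) and with the stage covariate (open); no test is attached to a median. In 29 of the 36 lists the open point is nearer to 0, and the mitochondrial genome stays at -0.40 and -0.42.

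By position, the calls lay on chromosomes I, IV and V, with 2 on each. Around edc-4, within 2 Mb on either side, 631 genes were tested, 0 were called and 30 (4.75%) had an unadjusted p under 0.05, beside 5.01% of all genes. Within 20 kb, 7 other genes were tested and 0 were called; W05F2.2 and W05F2.8, both under 2 CPM, had unadjusted p of 0.0123 and 0.0214 (log2 -0.89 and -0.75).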

How the data were processed

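Total RNA of mixed-stage embryos was sequenced in 4 genotypes with 4 libraries each. The deposited table holds raw counts of reads per gene. Trimmomatic, STAR, HTSeq, edgeR and limma, and the WBcel235 build, are named in the submitters' processing notes as the authors' tools. Their versions and the strand setting of the count step are not given here, so reads of overlapping genes on opposite strands may not be told apart. Symbols and positions come from Ensembl annotation of WBcel235, matched by identifier for 43623 and 46364 of 46726 genes.

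Genes were filtered with filterByExpr (minimum count 10, minimum total 15), scaled by TMM and fitted in R 4.3.3 with edgeR 4.0.16 (glmQLFit, glmQLFTest), all 16 libraries in 1 fit with a mean per genotype; the biological coefficient of variation was 0.193. Contrasts were double mutant minus edc-3, edc-4 minus WT, and their difference (the interaction). P-values were adjusted by Benjamini-Hochberg over all 16880 genes. Levels are TMM-scaled CPM; log2 CPM used a prior count of 2. DESeq2 1.42.0 and limma 3.58.1 (voom) were alternatives. Single values were tested with exact permutation tests. The pipeline was tested on simulated data. Pairs of replicates among the 8 libraries differed beyond sampling noise, with chi-squares between 10.4 and 184 for each degree of freedom.

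The 37 gene lists were described by counts and medians, without a test. Named were the targeted genes; called genes of 5 CPM or more, and up to 5 below it; from each list up to 2 called genes per direction; with under 20 calls, up to 10 uncalled, non-overlapping genes of 5 CPM or more per direction with the smallest p; and genes of 5 CPM or more called in the other contrasts. Others named were chosen after their values were seen. The members and lists were chosen with earlier results of these data known.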

Additional observations from a re-analysis of the deposited data

Results flagged for a closer look

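In 5 of 74 groups of 4 libraries examined among the named genes, 1 library lay far from the rest by Dixon's criterion; chance gives about 1 in 20. C55C3.3 had 0.297 CPM in double mutant replicate 2, against 0.166 to 0.183 CPM in the other double mutant libraries. T07G12.5 had 1.10 CPM in double mutant replicate 5, against 0.774 to 0.793 CPM. ZC513.7, a pseudogene that overlaps algn-12 on the other strand, had 209 CPM in double mutant replicate 4, against 288 to 292 CPM. C56E6.2 had 72.4 CPM in double mutant replicate 5, against 59.2 to 59.7 CPM. Among edc-3 libraries, hmit-1.1 had 9.98 CPM in replicate 5, against 6.40 to 6.98 CPM.

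In 6 genes the difference between double mutant and edc-3 itself differed from that between edc-4 and WT by the interaction test. The interaction log2 values were -7.36 for F59C6.15, 1.59 for rer-1, 1.09 for T25D10.4, -6.72 for F46C5.2, -5.05 for F46C5.4 and -5.47 for nas-25. Of these, rer-1, nas-25, F46C5.2 and F46C5.4 lie close together on chromosome II, between 8811370 and 8839981. In each of them the WT libraries lay outside the range of all mutant libraries. Whether they reflect a single difference was not tested. The values of F46C5.2, F46C5.4 and nas-25 rest on WT libraries with almost no counts. F46C5.2 had 123 to 177 counts in double mutant libraries, 120 to 317 in edc-3 libraries, 104 to 302 in edc-4 libraries and 0 to 5 in WT libraries. F46C5.4 had 23 to 26 counts in double mutant, 15 to 45 in edc-3, 19 to 41 in edc-4 and 0 to 2 in WT libraries, and nas-25 had 9 to 25 in double mutant, 5 to 36 in edc-3, 11 to 23 in edc-4 and 0 to 1 in WT libraries. The fitted values of these 3 genes depend on the prior count and are no bound. Between double mutant and edc-3 they differed by -0.35, -0.22 and 0.11, and none was called.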

How the results depend on the processing

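The 6 calls between double mutant and edc-3 held with other size factors, without scaling, without ribosomal RNA genes, with limma-voom and with a stricter filter, as counts of 6. DESeq2 gave 25 and the stage covariate 45. Leaving out 1 library gave 4 to 5 and the 8 libraries alone 5. Without a filter on low counts the edgeR fit called the same 6 genes. It also called hmit-1.1 (adjusted p = 0.0167), Y102A5C.5 and Y102A5C.6 (0.0103 each). Same-numbered double mutant and edc-3 libraries did not deviate together throughout (r = 0.16, -0.02, 0.47 and 0.20), and 3 of the 4 double mutant libraries correlated best with their own number; with a replicate block 4 genes were called, without Y51A2D.23 and T07G12.5. Without the libraries numbered 4 there were 4 calls, 3 lower and ZC513.7 higher. F59C6.15, edc-4, C55C3.3 and Y102A5C.36 kept their calls in each of the 8 fits that left out 1 compared library. Calls between edc-4 and WT were 24, and 42 by DESeq2, 52 with the stage covariate, 7 with those 8 libraries alone and 15 to 24 with 1 library left out. Interaction calls were 6, and 17 by DESeq2, 10 without a filter, 18 with the stage covariate and 5 to 7 with 1 library left out. The ribosomal RNA difference was 2.80 to 4.36 points with 1 library left out. Medians moved to -0.133 (osmotic response) and -0.103 (F-box and MATH-BTB, from 0.057) with the covariate, and to -0.0844 (small nucleolar RNA) without scaling. The cause of these moves was not tested. With the covariate 11 of 36 list medians changed sign. Intervals lay within a 2-fold change for 81.3% of all genes and 98.2% of those at 5 CPM or more; how much of the wider spread comes from depth was not tested.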
